A study of Mus musculus with 3 samples.

Results

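The postsynaptic density is the protein layer under the membrane of an excitatory synapse, and it is held together by families of scaffold proteins. Membrane-associated guanylate kinases (encoded by Dlg2, Dlg3 and Dlg4) bind glutamate receptors and their partners at the membrane, guanylate kinase-associated proteins (Dlgap1) bind these from below, Shank proteins (Shank1, Shank2 and Shank3) bind the Dlgap layer, and Homer proteins (Homer1 and Homer2) link Shank to metabotropic glutamate receptors and to internal calcium channels. In the cortex these proteins are best known from dendritic spines, and several of their genes are linked to autism. The 9 genes were taken by symbol from the 14933 genes of the table of filtered cells, and all 9 were found there.

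Single-cell RNA was counted with a 3′ kit (10X Chromium, version 2), in which unique molecular identifiers (UMIs) count transcripts by a tag near the 3′ end. Cells came from the medial prefrontal cortex of C57Bl6 mice at postnatal day 5, were dissociated with papain and were sorted for tdTomato. The 3 libraries were 1 wild-type, 1 heterozygous and 1 homozygous mutant, where the mutants carried 1 or both copies of a floxed Tbr1, a transcription factor of deep cortical layers, and all 3 groups shared Rbp4-cre and the tdTomato reporter. Rbp4-cre drives in layer 5 projection neurons, so Tbr1 was removed in those cells and not in the whole cortex, and the number of animals behind a library is not given in the sources used here. With 1 library per genotype there was no replicate, so no test of a genotype and no p-value was possible, and a difference of genotype and a difference between preparations cannot be told apart.

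The authors' lists put the 17396 filtered cells into 3 classes, which are kept here. Typical neurons (11070 cells: 1778 wild-type, 5357 heterozygous, 3935 homozygous) were those used by the authors to compare genotypes. Atypical neurons (873 cells: 304, 107 and 462) were neuronal cells that the authors set aside, and the other 5453 cells (2873, 1398 and 1182) lay outside the neuronal table. Levels are given as CPM, the UMIs of a gene summed over the cells of a class, divided by all UMIs of that class and scaled to 1000000. Because each transcript gives a tag at its 3′ end, they were not divided by gene length. The sums for typical neurons were 3670646, 10418228 and 6074494 UMIs, and the median depth per typical neuron was 1901, 1743 and 1375 UMIs. Intervals, in square brackets, are exact 95% intervals (Poisson for a level, conditional binomial for a log2 ratio) that cover counting error only, not the spread between animals or libraries.

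The classes were checked against marker lists. A list of 8 excitatory neuron markers summed to 2888, 3553 and 4201 CPM in typical neurons of the wild-type, heterozygous and homozygous libraries and to 896, 2595 and 1752 CPM in the other cells. A list of 5 layer 5 markers (Rbp4, Fezf2, Bcl11b, Etv1, Ldb2) summed to 214, 202 and 222 CPM in typical neurons. It summed to 209, 201 and 200 CPM in the other cells, so it did not set typical neurons and other cells apart. In atypical neurons it was higher in each library, at 269, 277 and 358 CPM. A list of 7 astrocyte or radial glia markers, also used below to name clusters, summed to 6743, 5889 and 6734 CPM in typical neurons and to 5206, 5285 and 5051 CPM in the other cells, so its sum was higher in the neurons. Aldoc, 1 of the 7, was among the 10 leading genes of cluster 2 below, where 2390 of 2505 cells were typical neurons. In astrocyte-like cluster 8, 6 of the 7 were at 2-fold or more over the mean of the other clusters. How far single genes carry the sum was not tested. Tbr1 stood at 27.5, 30.7 and 22.4 CPM in typical neurons. The tags lie outside the deleted exons, so these counts do not check the genotype labels. Of the cell barcodes, 139 were shared by 2 libraries and 1 by 3.

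In the mouse genome (GRCm38), Shank1 lies at chr7:44310253-44360572, Shank2 at chr7:144001928-144424494, Dlg2 at chr7:90476672-92449247 and Homer2, on the minus strand, at chr7:81600481-81707527. Shank3 lies at chr15:89499623-89560261, Dlg3 at chrX:100767722-100818410, Dlg4 at chr11:70016942-70047522, Dlgap1 at chr17:69969073-70821413 and Homer1 at chr13:93299635-93405129, and apart from Homer2 all are on the plus strand. The last 1000 bases of Shank1 overlap an exon of 1700008O03Rik on the opposite strand, which itself had 22, 47 and 37 UMIs in typical neurons, and the 3′ ends of the other 8 genes overlap no other annotated exon. Of the Homer1 transcripts, a short form induced by activity and longer forms end at different places, and the counts per gene cannot tell them apart.

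RefSeq start windows, each of 300 bases (250 before and 50 after a start, GRCm38.p6), were listed for 7 of the 9 genes, in 15 windows, with no entry for Shank1 and Shank2. The T-box half-site GGTGTGA, the core letters bound by TBR1 and its relatives, was in 0 of these 15 windows on either strand, and in 3.98% of all 32851 windows. With 15 windows and such a share, a count of 0 does not set these genes apart. Sites outside the windows were not searched. The windows differed most within Homer2, whose pair of annotated starts is printed here because Homer2 varied strongly between cell types. The outer window holds 49 CG pairs, more than 99.0% of all windows, and the inner window holds 3 CG pairs and the letters TATAAA, which were found in 8.32% of all windows. The 250 bases before each start, on the minus strand and read 5′ to 3′, carry CG pairs and TATAAA in capitals, with the outer one at chr7:81706926-81707175 and the inner one at chr7:81692966-81693215.
Homer2 outer start: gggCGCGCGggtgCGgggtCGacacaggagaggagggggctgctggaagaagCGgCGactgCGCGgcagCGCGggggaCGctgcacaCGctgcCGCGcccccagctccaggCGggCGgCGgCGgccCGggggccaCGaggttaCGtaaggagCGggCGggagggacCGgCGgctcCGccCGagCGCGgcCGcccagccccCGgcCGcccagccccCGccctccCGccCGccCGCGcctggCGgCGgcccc
Homer2 inner start: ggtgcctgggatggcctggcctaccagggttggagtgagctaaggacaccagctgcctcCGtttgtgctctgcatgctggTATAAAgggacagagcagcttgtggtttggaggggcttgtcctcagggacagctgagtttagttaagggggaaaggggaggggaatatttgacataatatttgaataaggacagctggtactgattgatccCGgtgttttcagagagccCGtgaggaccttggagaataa
A 3′ tag does not show from which start a Homer2 transcript came, so no level below belongs to either window.

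In typical neurons Shank1 had by far the most UMIs of the 9 genes. Its level was 350 CPM [331, 370] with 1286 UMIs (wild-type), 375 CPM [363, 386] with 3902 UMIs (heterozygous) and 419 CPM [403, 435] with 2543 UMIs (homozygous). Shank1 alone gave 53.2%, 54.6% and 56.6% of the UMIs of the 9 genes. The other Shank genes were far lower in the same cells. Shank2 stood at 27.2, 19.6 and 26.2 CPM, and Shank3, the gene lost in Phelan-McDermid syndrome, at 2.45, 1.54 and 4.28 CPM, from 9, 16 and 26 UMIs.

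Dlg4, which encodes PSD-95, followed Shank1 with 122, 134 and 144 CPM in the wild-type, heterozygous and homozygous libraries. Dlg2, which encodes PSD-93, stood at 39.8, 36.8 and 35.2 CPM. Dlg3, which encodes SAP102, stood at 7.08, 6.53 and 9.22 CPM. SAP102 is known as a scaffold of young synapses, but at this age and by this count its transcript was the second lowest of the 9.

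Dlgap1 stood at 52.6, 54.8 and 47.1 CPM in typical neurons. Homer2 stood at 35.4, 34.2 and 31.9 CPM and Homer1 at 21.8, 23.6 and 23.05 CPM. By the mean of the 3 libraries the order was Shank1, Dlg4, Dlgap1, Dlg2, Homer2, Shank2, Homer1, Dlg3 and Shank3. This is an order of UMI counts, and how well the 3′ end of each gene was captured was not tested. The intervals of Dlg2 and Homer2 overlapped in each library, and so did those of Shank2 and Homer1, so these neighbours were not set apart by counting error alone. Shank3 and Dlg3 stayed under a mean of 10 CPM, and the other 7 genes passed that filter.

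**Figure D1:**
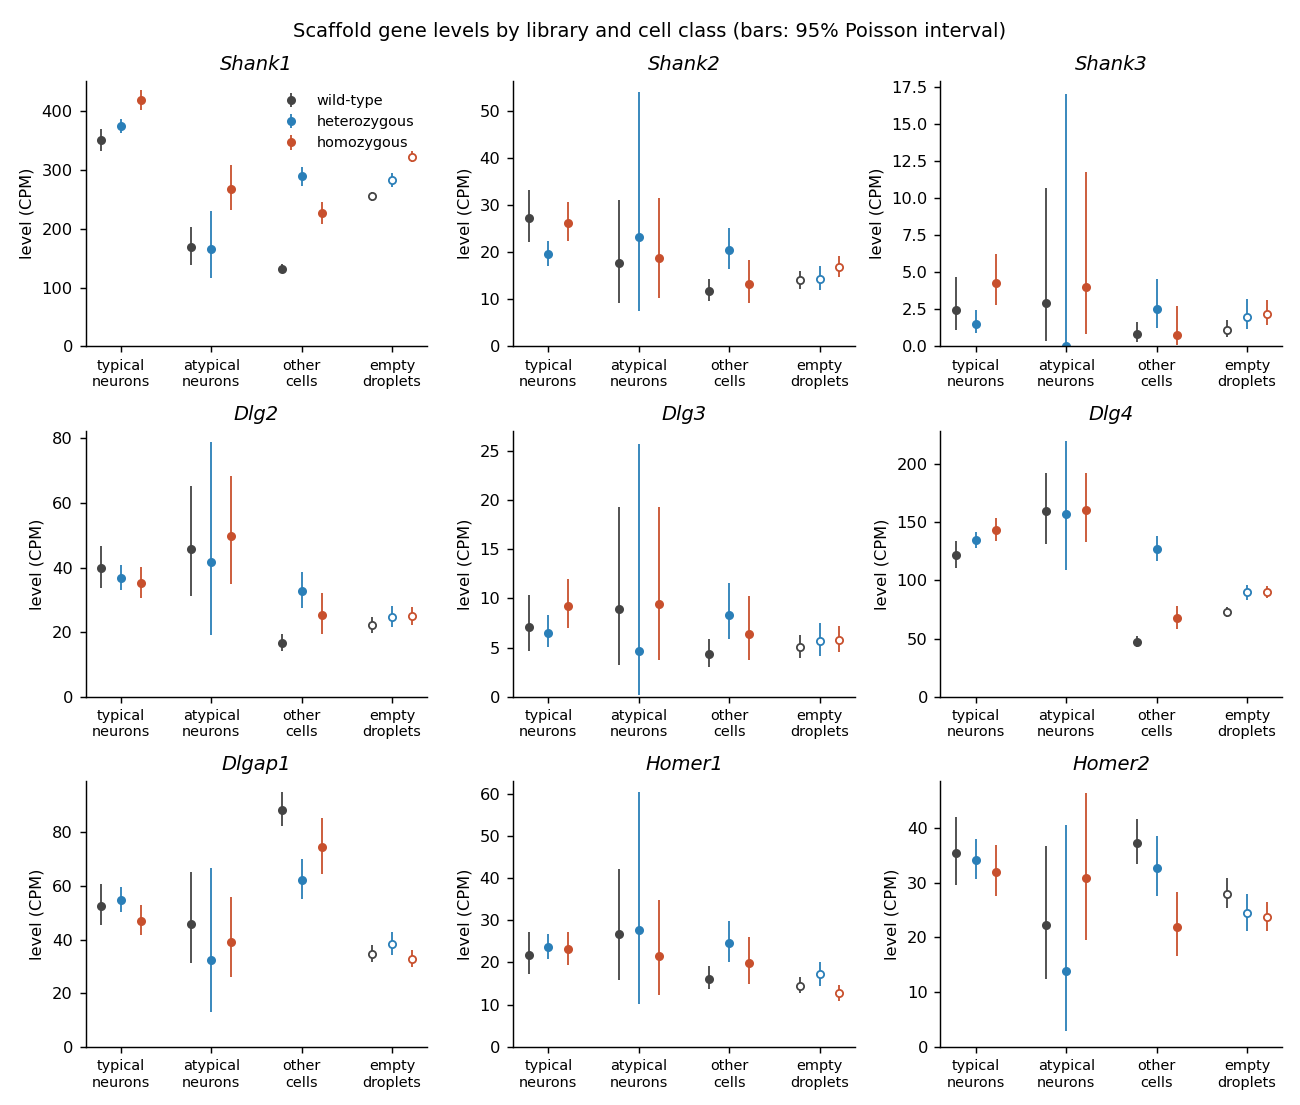
Level in CPM (vertical axis, from 0, a scale of its own for each gene) of the 9 scaffold genes in typical neurons, atypical neurons, other cells and empty droplets (open points), in the wild-type, heterozygous and homozygous libraries; bars are 95% Poisson intervals. Shank1 is at 350 to 419 CPM in typical neurons against 166 to 268 in atypical neurons, and Dlgap1 is higher in other cells than in typical neurons in each library.

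Between genotypes, the log2 ratios of the scaffold genes that passed the filter lay from -0.48 for Shank2 to 0.26 for Shank1 over the wild-type library. Of these 7 genes, 0 were past 1.5-fold in either direction in the heterozygous over the wild-type library, where 7.73% of all 6323 genes were. The count was also 0 in the homozygous over the wild-type library, against 7.34% of genes, and 0 in the homozygous over the heterozygous library, against 1.87%. With 7 genes and such shares a count of 0 does not set the scaffolds apart from other genes. The heterozygous and homozygous ratios share the wild-type library and are not independent of each other. The median log2 ratio of the 7 genes was 0.060 (heterozygous) and -0.058 (homozygous over wild-type), beside 0.054 and 0.064 over all 6323 genes.

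Shank1 was higher in the homozygous than in the wild-type library by CPM, with a log2 ratio of 0.26 [0.16, 0.35], and the direction turned to -0.16 when UMIs were counted per cell instead, with the shallower homozygous cells. In the heterozygous over the wild-type library its log2 ratio was 0.10 [0.01, 0.19], which moved to 0.010 per cell, 0.032 with the empty-droplet profile subtracted and 0.20 with typical and atypical cells together. In the homozygous over the heterozygous library it was 0.16 [0.09, 0.23] by CPM and -0.17 per cell. Per cell, the median of all genes itself moved to -0.36 in the homozygous over the wild-type library. Dlg4 had a log2 ratio of 0.23 [0.07, 0.40] in the homozygous over the wild-type library by CPM, which turned to -0.19 per cell, and of 0.14 [-0.01, 0.30] in the heterozygous over the wild-type library. Both genes thus stood in the same order in the 3 libraries by CPM, and both homozygous ratios lay inside the range from -0.49 to 0.56 between the 5th and 95th percentiles of all genes.

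Some other values stood in the same order as Shank1 and Dlg4. The excitatory marker list was lowest in the wild-type and highest in the homozygous library, as given above, and Nrgn, a calmodulin-binding protein of dendrites, had log2 ratios of 0.29 (heterozygous) and 0.69 (homozygous) over the wild-type library. The order of the list rests on Nrgn, which gave 1692, 2062 and 2722 CPM of its sum, while Neurod6 stood at 201, 246 and 240 CPM and was not highest in the homozygous library. In empty droplets, which hold free RNA of the suspension, Shank1 stood at 255, 283 and 323 CPM, with a log2 ratio of 0.34 [0.28, 0.40] in the homozygous over the wild-type library. Dlg4 in empty droplets stood at 72.6, 89.7 and 89.8 CPM. Markers of other cell types were highest in typical neurons of the wild-type library, where Shank1 and Dlg4 were lowest. The blood list summed to 345, 44.6 and 85.8 CPM, the endothelial list to 73.8, 13.8 and 29.0, the mural list to 35.7, 14.6 and 17.6, and the microglia list to 54.2, 28.0 and 32.9 CPM. The part that these values have in the result was not tested.

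Shank2 was the member with the lowest heterozygous ratio among those that passed the filter, near the 5th percentile of all genes (-0.51). It had 100, 204 and 159 UMIs, and its log2 ratio was -0.48 [-0.83, -0.12] in the heterozygous over the wild-type library and 0.42 [0.11, 0.72] in the homozygous over the heterozygous library. In the homozygous over the wild-type library it was -0.06 [-0.43, 0.32], an interval that held 0, so by CPM the heterozygous library was the low one. Per cell the ratios of Shank2 were -0.56 and -0.48 over the wild-type library and 0.086 between the mutant libraries. The medians of all genes per cell were -0.032, -0.36 and -0.32 in the same comparisons. Beside the ordinary gene the heterozygous library was thus again the low one. Shank3 also had its lowest level in the heterozygous library, with a log2 ratio of 1.48 [0.53, 2.48] in the homozygous over the heterozygous library, from 26 and 16 UMIs.

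For the remaining members the intervals over the wild-type library held 0. The log2 ratios of the homozygous over the wild-type library were -0.18 [-0.49, 0.14] for Dlg2, -0.16 [-0.43, 0.11] for Dlgap1, -0.15 [-0.48, 0.18] for Homer2 and 0.08 [-0.33, 0.50] for Homer1. Dlg3 had 0.38 [-0.32, 1.11] and Shank3 0.80 [-0.34, 2.08], both from few UMIs. These intervals are wide enough to hold differences of about the same size as that of Shank1. Dlgap1 was lower in the homozygous than in the heterozygous library, by a log2 ratio of -0.22 [-0.43, -0.01], and its ratio in empty droplets was also -0.22 [-0.43, -0.01]. All 9 summed gave 659, 686 and 739 CPM, with log2 ratios of 0.06 [-0.01, 0.13] in the heterozygous and 0.17 [0.09, 0.24] in the homozygous over the wild-type library by CPM, the latter turning to -0.25 per cell. Without Shank1 the sums were 308, 311 and 321 CPM, and the homozygous over wild-type log2 ratio was 0.06 [-0.05, 0.16], which moved to 0.18 with cells thinned to 1000 UMIs and to -0.36 per cell.

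**Figure D2:**
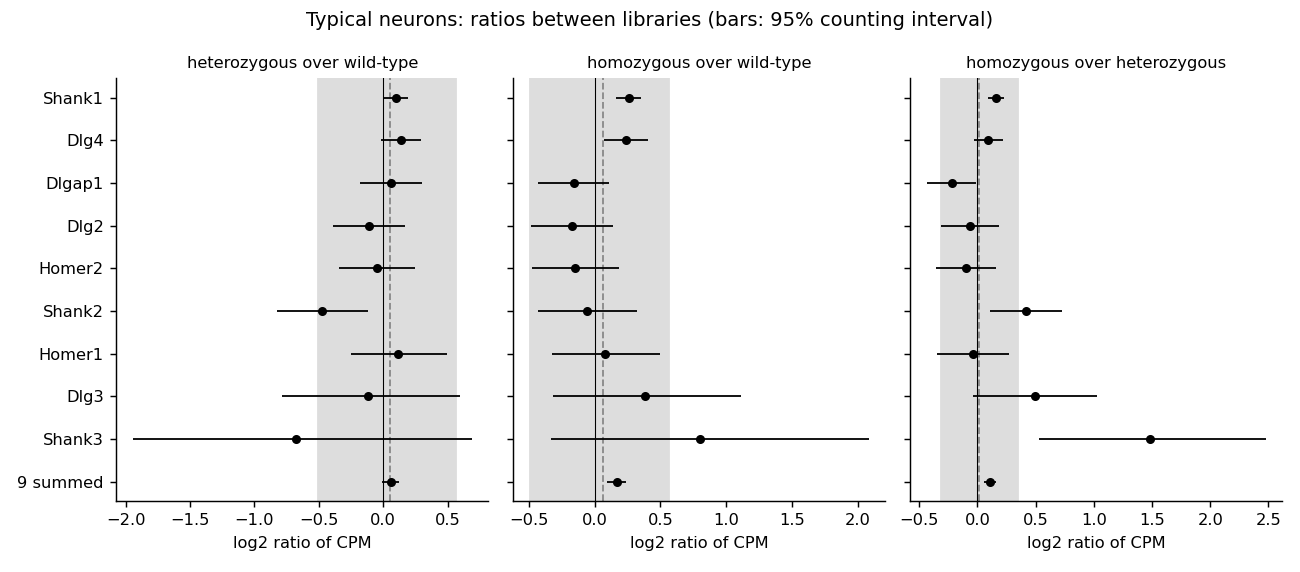
Log2 ratio of CPM between libraries (horizontal axis) for each gene and for the 9 summed (rows) in typical neurons; bars are 95% counting intervals, the grey band holds all tested genes between the 5th and 95th percentiles and the dashed line is their median. Shank1 lies at 0.10, 0.26 and 0.16 by CPM and turns negative per cell in the last 2, and Shank3 and Dlg3 have the widest bars.

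Among typical neurons Shank1 was not uniform. Clustering of all filtered cells, made without the 9 genes, gave 26 clusters, 4 of which held most typical neurons. In cluster 4, led by Cux2, Sfxn5 and Cplx2 (Cux2 is a transcription factor best known from upper cortical layers), Shank1 stood at 563, 548 and 666 CPM in the wild-type, heterozygous and homozygous libraries. In clusters 1 to 3 together it stood at 306, 330 and 355 CPM. The log2 ratio of cluster 4 over the other clusters was 0.88 [0.69, 1.06], 0.73 [0.63, 0.83] and 0.91 [0.78, 1.03], so the difference was seen in each library, and Shank1 itself was among the 10 leading genes of the cluster. It rests on 279, 1078 and 779 cells of cluster 4, and the clusters were made from the same cells, so it is a description. Cluster 4 was picked because it had the most Shank1 of these 4 clusters, which favours a step for Shank1 over one for its partners.

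No such step was seen for the partners of Shank1. Dlg4 in cluster 4 over clusters 1 to 3 had log2 ratios of 0.17 [-0.20, 0.52], 0.15 [-0.04, 0.33] and -0.15 [-0.40, 0.10], and those of Dlgap1 were 0.19, 0.07 and 0.05, each with an interval that held 0. Within each of the 4 clusters Shank1 was higher by CPM in the homozygous than in the wild-type library, with log2 ratios of 0.23 [0.04, 0.42], 0.24 [0.02, 0.46], 0.18 [-0.05, 0.42] and 0.24 [0.06, 0.43] in clusters 1, 2, 3 and 4. For Dlg4 the same ratios were 0.43 [0.13, 0.74], 0.28 [-0.08, 0.66], 0.06 [-0.29, 0.42] and -0.03 [-0.42, 0.37]. Over all typical neurons the ratio of Shank1 was 0.26, so each cluster lay slightly below it, and the interval of cluster 3 held 0. The heterozygous over wild-type ratios of Shank1 were 0.16, 0.09, 0.04 and -0.04 in clusters 1 to 4, each with an interval that held 0.

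**Figure D3:**
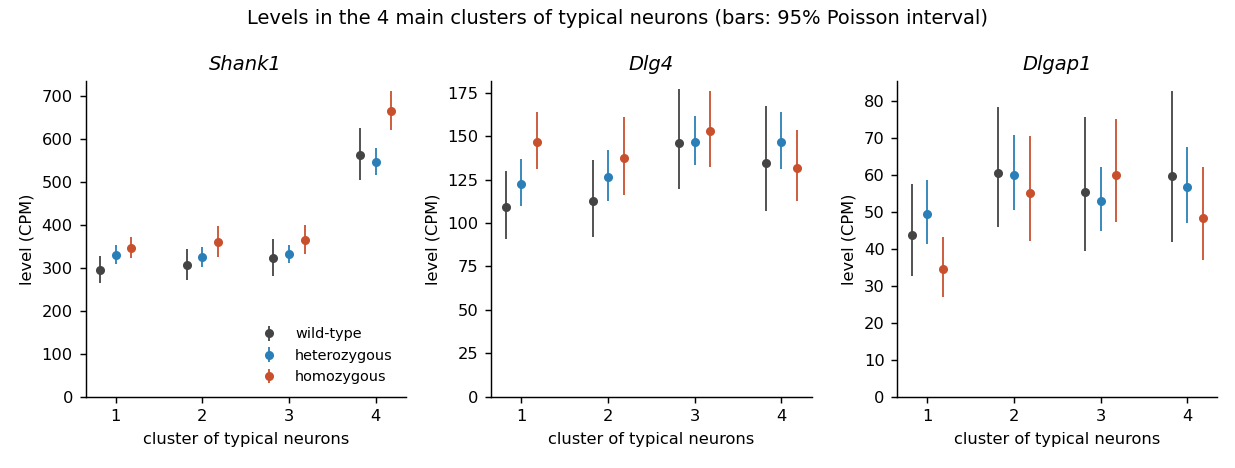
Level in CPM (vertical axes, from 0) of Shank1, Dlg4 and Dlgap1 in the 4 main clusters of typical neurons (horizontal axis), by library; bars are 95% Poisson intervals. Shank1 is at 548 to 666 CPM in cluster 4 and at 296 to 365 in clusters 1 to 3, and Dlg4 and Dlgap1 show no such step.

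In the atypical neurons Shank1 was low while Dlg4 and Dlg2 were not. Shank1 stood at 169, 166 and 268 CPM in the wild-type, heterozygous and homozygous libraries, with log2 ratios over typical neurons of -1.05 [-1.34, -0.78], -1.17 [-1.69, -0.70] and -0.64 [-0.86, -0.43]. Dlg4 stood at 160, 157 and 161 CPM in the same cells, with log2 ratios of 0.39 [0.07, 0.69], 0.23 [-0.31, 0.72] and 0.17 [-0.12, 0.44]. Dlg2 stood at 45.9, 41.6 and 49.7 CPM, with intervals of the ratio that held 0 in each library. Empty droplets held 255, 283 and 323 CPM of Shank1, above its level in atypical neurons in each library. They held 72.6, 89.7 and 89.8 CPM of Dlg4, below its level in atypical neurons. Without Shank1 the summed members were at 330, 301 and 334 CPM in atypical and 308, 311 and 321 in typical neurons. The authors set these cells aside as lower in the excitatory markers Neurod6 and Nrgn and higher in housekeeping genes. Neurod6 stood at 50.3, 46.2 and 55.02 CPM in them and at 201, 246 and 240 CPM in typical neurons, but Nrgn stood at 485, 2354 and 1082 CPM against 1692, 2062 and 2722, so in the heterozygous library it was not lower. Of the 873 cells, 657 fell in cluster 5, led by Ppp1r1b, Arpp21 and Rxrg, genes known from striatal projection neurons among others. That cluster was given no cell type name here.

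Against the other sorted cells, the members divided by gene and not as a set. Of the 7 genes that passed the filter, 4 (Shank1, Shank2, Dlg2 and Dlg4) were past 2-fold higher in typical neurons in the wild-type library, where 3.96% of 7710 genes were, and 0 were past 2-fold lower, where 32.9% were. With cells thinned to 1000 UMIs the count higher was 3 of 7, beside 3.93% of 7582 genes. With a filter at a mean of 20 CPM it was 3 of 6, beside 4.48% of 5184 genes. In the heterozygous library 0 were past 2-fold higher (0.0519% of genes) and 0 lower (18.6%). In the homozygous library 1, Dlg4, was past 2-fold higher (1.31% of genes) and 0 lower (27.3%). The other cells were not the same mixture in each library. Among them, 590, 80 and 93 cells lay in inhibitory-like cluster 6, 411, 109 and 143 in astrocyte-like cluster 8, and 33, 206 and 19 in excitatory-like cluster 3. Cluster 7, led by Crybb1, Aif1 and Cryba4 and left without a cell type name, held 127, 289 and 162. It was the largest cluster of other cells in both mutant libraries. The part of these clusters in the differences between libraries was not tested.

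Shank1 stood at 132, 289 and 226 CPM in the other cells, with log2 ratios of typical over other cells of 1.41 [1.30, 1.53], 0.37 [0.28, 0.47] and 0.89 [0.76, 1.02], the second of which turned to -0.29 per cell. Dlg4 stood at 47.2, 127 and 67.6 CPM there, with ratios of 1.37 [1.17, 1.57], 0.08 [-0.06, 0.23] and 1.09 [0.85, 1.33]. Dlgap1 went the other way. It stood at 88.4, 62.3 and 74.4 CPM in the other cells, above typical neurons, with log2 ratios of -0.75 [-0.99, -0.52], -0.18 [-0.40, 0.03] and -0.66 [-0.93, -0.39]. The median of all 7710 genes was -0.58, -0.29 and -0.42 in the same comparison, so Dlgap1 lay near the ordinary gene there. Homer2 stood at 37.3, 32.7 and 21.8 CPM in the other cells, with ratios of -0.07 [-0.38, 0.23], 0.07 [-0.22, 0.36] and 0.55, with an interval above 0 in the last.

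Among the other cells Dlgap1 was above its level in typical neurons in astrocyte-like cells and in inhibitory-like clusters 6 and 12 in each library. In cluster 6 it stood at 71.1, 79.0 and 98.4 CPM, with the interval of the ratio above 0 in 2 of the 3 libraries. In excitatory-like other cells (73 wild-type, 296 heterozygous and 78 homozygous) Dlgap1 was also above typical neurons in each library, with intervals that held 0. Shank1 in these excitatory-like cells was above typical neurons in each library too, with the interval above 0 in 2 of the 3. Clusters were named only from marker lists, as like a type, and their levels are given for cells outside the neuronal table. In astrocyte-like cells (541 wild-type, 136 heterozygous and 167 homozygous cells; the list also holds radial glia genes) Dlgap1 stood at 211, 166 and 164 CPM. Its log2 ratio over typical neurons of the same library was 2.01 [1.75, 2.27], 1.60 [1.22, 1.96] and 1.80 [1.38, 2.20]. All 3 libraries thus showed Dlgap1 above its neuronal level, while Shank1 in the same cells was at 109, 150 and 159 CPM and Dlg4 at 54.0, 71.3 and 45.0 CPM. These levels of Shank1 and Dlg4 were below those of empty droplets in each library.

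Within the astrocyte-like cells Dlgap1 varied by cluster. Over the 3 libraries together it stood at 295 CPM (73 UMIs) in cluster 19, led by Sfrp1, Ptx3 and Slc14a2, at 198 CPM (351 UMIs) in cluster 8, led by Ptprz1, Slc7a10 and Btbd17, and at 106 CPM (33 UMIs) in cluster 22, led by Gfap, Pla2g3 and Aqp4. The Gfap-led cluster was thus the lowest of the 3 in Dlgap1 over the libraries together. Cluster 19 was mostly wild-type, with 82, 10 and 9 cells, so its Dlgap1 level is mainly that of 1 library.

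In oligodendrocyte lineage-like cluster 13 Dlgap1 was also above typical neurons. In this cluster, led by Pdgfra, Lhfpl3 and Dll3, genes of oligodendrocyte precursors, Dlgap1 stood at 145 CPM (67 UMIs) in the 160 wild-type cells, a log2 ratio over typical neurons of 1.46 [1.04, 1.87]. The homozygous ratio was 2.18 [0.86, 3.24], from 7 UMIs of Dlgap1 in 18 cells. The heterozygous library held only 6 cells of cluster 13 and 1 UMI of Dlgap1, too few to compare.

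In endothelial-like cells, taken as the comparison for background, Dlgap1 stood at 19.6, 13.5 and 6.88 CPM, and in microglia-like cells at 20.8, 78.2 and 22.7 CPM, from 5, 11 and 2 UMIs. In empty droplets it stood at 34.7, 38.3 and 32.9 CPM, below both its neuronal and its astrocyte-like level. When every cell was thinned to 1000 UMIs, which left out no cell of these types, 16.5%, 18.4% and 15.6% of astrocyte-like cells still had a UMI of Dlgap1. The shares were 4.16%, 5.00% and 4.60% of typical neurons and 1.55%, 0.943% and 0.629% of endothelial-like cells. Unthinned, the shares for Dlgap1 were 42.5%, 38.2% and 31.7% of astrocyte-like cells at median depths of 2613, 2666 and 2123 UMIs, and 10.3%, 9.93% and 6.91% of typical neurons at the lower depths given above.

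Shank1 was also counted in inhibitory-like cells, and there its level differed by cluster. In cluster 12, led by Meg3, Npy and Sst, Shank1 stood at 374, 503 and 513 CPM in the wild-type, heterozygous and homozygous libraries, a log2 ratio over typical neurons of 0.09 [-0.16, 0.34], 0.43 [0.21, 0.63] and 0.29 [0.07, 0.50]. In cluster 6, led by Igfbpl1, Sp8 and Dlx6os1, genes of young inhibitory neurons, it stood at 153, 191 and 169 CPM, so that cluster 12 exceeded cluster 6 by a log2 ratio of 1.29 [0.97, 1.60], 1.40 [0.83, 2.01] and 1.60 [0.99, 2.28]. Empty droplets held 255, 283 and 323 CPM of Shank1, above cluster 6 and below cluster 12 in each library.

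Most other members shared this step between inhibitory-like clusters in the pooled libraries. The ratio of all genes between these clusters was not computed, so the step is not shown to be particular to the members. Cluster 6 held 590, 80 and 93 cells of the wild-type, heterozygous and homozygous libraries, and cluster 12 held 121, 95 and 103. The log2 ratio of cluster 12 over cluster 6 was 1.77 [0.94, 2.67] for Homer1, 1.67 [1.03, 2.35] for Dlg2, 1.03 [0.61, 1.47] for Dlg4 and 1.01 [0.66, 1.36] for Dlgap1. Dlg3 had 1.16 [0.11, 2.27] from 22 and 13 UMIs, with -0.40 [-2.62, 2.23] in the homozygous library. For Shank2 it was 0.75 [-0.20, 1.73], for Homer2 0.12 [-0.53, 0.78] and for Shank3 0.99 [-2.14, 4.57], the last from 3 and 2 UMIs. Within single libraries the ratios of Dlg4, Dlg2, Dlgap1 and Homer1 lay above counting error only in the wild-type library, where cluster 6 had the most cells. The heterozygous and homozygous ratios were 1.49 and 1.02 for Dlg2, 2.43 and 0.48 for Homer1, and 0.49 and 0.47 for Dlgap1, each with an interval that held 0. For Dlg4 they were 0.34 [-0.71, 1.53] (heterozygous) and 0.39 [-0.72, 1.64] (homozygous). Dlgap1 in cluster 12 stood at 199, 111 and 136 CPM, above typical neurons in each library, while Dlg4 stood at 131, 83.4 and 82.8 CPM, below typical neurons in the heterozygous and homozygous libraries (log2 ratios of -0.69 [-1.23, -0.19] and -0.79 [-1.36, -0.28]). Empty droplets held 72.6, 89.7 and 89.8 CPM of Dlg4. That was above cluster 6 (45.0, 65.9 and 63.3 CPM) in each library, and above cluster 12 in the mutant libraries only.

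Homer2 had its own pattern. Over the libraries together its highest level was in cluster 23, a cluster of 70 cells outside the neuronal table led by Reln, Ndnf and Snhg11 (Reln encodes reelin, secreted by cells of the outermost cortical layer and by some inhibitory neurons), which was left without a cell type name. There Homer2 stood at 233, 139 and 220 CPM, from 62, 11 and 5 UMIs in 50, 14 and 6 cells, with log2 ratios over typical neurons of 2.72 [2.25, 3.16], 2.02 [1.01, 2.88] and 2.78 [1.14, 4.03]. In the same cells Dlgap1 had only 2 UMIs, or 5.43 CPM, and Homer1 stood at 8.14 CPM over the 3 libraries.

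Homer2 was also above typical neurons in the Pdgfra-led cluster 13, at 80.0 CPM (37 UMIs) in the wild-type library, a log2 ratio of 1.18 [0.61, 1.71]. The heterozygous library had 250 CPM from 4 UMIs, above its value for cluster 23, and the homozygous library 61.1 CPM from 2 UMIs. Homer1 stood at 17.6 CPM (9 UMIs) in cluster 13 over the libraries together. Homer2 in endothelial-like cells stood at 11.6, 6.73 and 2.29 CPM.

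**Figure D4:**
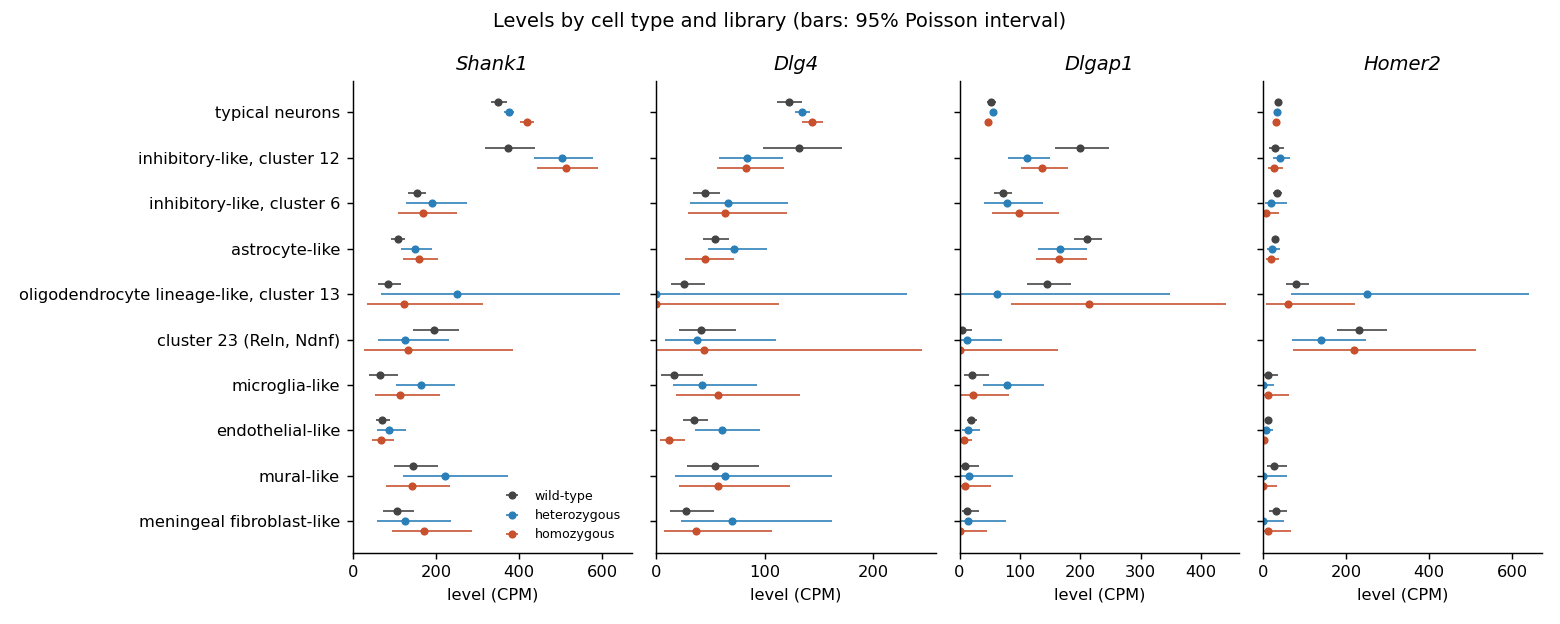
Level in CPM (horizontal axes, from 0) of Shank1, Dlg4, Dlgap1 and Homer2 in typical neurons and in clusters or cell types of the cells outside the neuronal table (rows), by library; bars are 95% Poisson intervals. Dlgap1 is at 164 to 211 CPM in astrocyte-like cells against 47.1 to 54.8 in typical neurons, and Homer2 is at 139 to 233 CPM in cluster 23.

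Empty droplets also held the 9 transcripts. In empty droplets the 9 genes summed to 447, 499 and 532 CPM, and all 9 had a higher CPM in typical neurons than in empty droplets in the wild-type and homozygous libraries, with an interval that held 0 for Shank3 and Dlg3 in the wild-type library. Shank3 was the exception for the heterozygous cells, at 1.54 CPM in typical neurons and 1.996 in empty droplets, a log2 ratio of -0.38 [-1.46, 0.70]. For Shank1 the log2 ratio of typical neurons over empty droplets was 0.46, 0.41 and 0.37, and for Dlg4 it was 0.75, 0.58 and 0.68. Endothelial-like cells, which should lack Shank1, held 71.2, 87.5 and 68.8 CPM of it, below its level in empty droplets. The share of free RNA taken off in the alternative that subtracts the empty-droplet profile was 22.9%, 12.1% and 15.5% of the UMIs of typical neurons, set by the non-neuronal marker list that was lowest there relative to empty droplets.

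Per cell, most members were detected in few neurons. Thinned to 1000 UMIs per cell, Shank1 had a UMI in 29.2%, 30.4% and 32.9% of typical neurons against 7.12%, 6.60% and 9.43% of endothelial-like cells. Unthinned the Shank1 shares were 47.9%, 47.0% and 43.6% of typical neurons, in the reverse order, beside 21.1%, 17.9% and 14.5% of endothelial-like cells, whose median depths were 2853, 2446.5 and 2007 UMIs. Dlg4 had a UMI in 10.8%, 11.7% and 12.8% of thinned typical neurons, beside 3.41%, 6.60% and 2.52% of endothelial-like cells. Shank3 had a UMI in 0.281%, 0.131% and 0.432% of thinned typical neurons, beside 0.310%, 0% and 0% of 323, 106 and 159 endothelial-like cells. The zeros allow shares of up to 2.83% and 1.89% at 3 counts, and of 3.42% and 2.29% by the exact 95% interval. Unthinned, 2.83% of heterozygous endothelial-like cells had a Shank3 UMI, above the 0.299% of typical neurons, so these shares do not set neurons above endothelial-like cells. Whether endothelial-like cells hold Shank3 of their own was not tested, so they may not show background for this gene. At least 1 of the 9 genes was seen in 46.2%, 47.5% and 51.3% of thinned typical neurons and 2 or more in 9.34%, 10.3% and 10.4%. The shares in thinned endothelial-like cells were 13.3%, 16.0% and 15.1% for at least 1 gene, and 1.24%, 0.943% and 0% for 2 or more, where 0 of 159 homozygous cells allows a share of up to 1.89% at 3 counts and 2.29% by the exact 95% interval.

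The other genes of the postsynaptic density were described in 3 lists, whose counts past 1.5-fold stand beside 7.73% (heterozygous) and 7.34% (homozygous over wild-type) of all genes, so that few such genes in a list are what any list would show. Of 24 further scaffolds, 15 passed the filter, and their median log2 ratio was -0.0086 for the heterozygous and 0.075 for the homozygous over the wild-type library, with 0 past 1.5-fold in the former and 1 in the latter. That gene was Tanc2, a large spine scaffold, at 20.2, 13.8 and 13.2 CPM, with log2 ratios of -0.54 [-0.96, -0.12] and -0.61 [-1.09, -0.14]. The other low ends of the list were Magi1 (-0.48 and -0.32) and Magi2 (-0.32 and -0.30). At its high end were Begain (0.28 and 0.50), the AMPA receptor partner Pick1 (0.21 and 0.49) and Lin7b (0.38 and 0.44), whose 3′ end overlaps exons on the opposite strand, as does that of Abi1 below.

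Of 25 enzymes and actin partners, 19 passed the filter, with medians of 0.13 and 0.11 and with 1 past 1.5-fold higher in each ratio. That gene was Agap2, a GTPase-activating protein, at 15.3, 41.4 and 39.0 CPM, with log2 ratios of 1.44 [1.03, 1.87] and 1.35 [0.93, 1.80]. The wild-type library was the low one, and the homozygous over heterozygous log2 ratio of Agap2 was -0.08. Abi1 (0.53 and 0.57) and Iqsec1 (0.49 and 0.46) had the next highest homozygous ratios. Sipa1l1, a regulator of spine shape, had the lowest, at -0.34 [-0.84, 0.18] and -0.92 [-1.54, -0.29], and was past 1.5-fold lower in the homozygous library, followed by Kalrn (-0.22 and -0.58) and Arhgef7 (-0.13 and -0.36).

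Of 6 genes of inhibitory postsynapses, 5 passed the filter, with medians of -0.17 and -0.29. Gphn, which encodes the scaffold gephyrin, stood at 17.2, 21.9 and 26.0 CPM, with log2 ratios of 0.35 [-0.06, 0.78] and 0.60 [0.17, 1.04], and was the 1 gene past 1.5-fold in the homozygous library. Nlgn2, its adhesion partner, had 0.43 and 0.25. Dag1 (-0.17 and -0.56) and Lhfpl4 (-0.19 and -0.54) were at the low end.

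**Figure D5:**
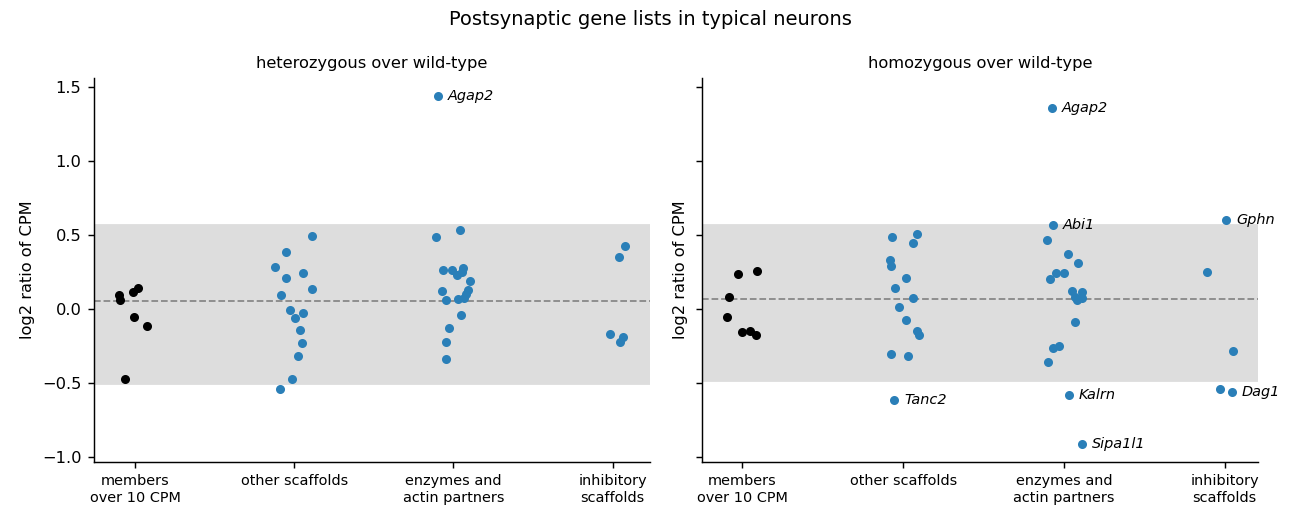
Log2 ratio of CPM over the wild-type library (vertical axis) in typical neurons for the 7 scaffold genes over 10 CPM and the 3 lists of other postsynaptic genes (columns), heterozygous on the left and homozygous on the right; each point is a gene, the grey band holds all tested genes between the 5th and 95th percentiles and the dashed line is their median. The 7 scaffolds lie between -0.48 and 0.26, and Agap2 lies above the band in both panels.

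Over the 9 combinations of library and class, the genes whose log2 level was most like that of the 9 members summed were Calm3 (Pearson r of 0.980), a calmodulin gene, Prdx5 (0.977), Gng13 (0.975), Mlf2 (0.975) and Nefl (0.972), a neurofilament gene, out of 2372 genes whose mean reached 50 CPM. These 9 points come from 3 libraries and share their depth and their mixture of cells, and the sum is led by Shank1, so the values describe these libraries only.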

How the data were processed

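The 3 libraries were processed by the authors: per the submitters' processing notes, mm10 and Cell Ranger 2.0.1 were used to make raw UMI counts per gene. Whether counting used strand is not given in the sources used here. The deposited counts of filtered cells were used for all levels. The deposited cells had passed the authors' limits on UMIs, genes and mitochondrial share per cell, and the deposited scaled table was not used. The deposited mitochondrial fraction per cell was used for description only, with medians of 10.4%, 15.4% and 12.5% in typical neurons. The authors' neuronal table, which holds natural log values, gave only its 7174 genes, 8 of the 9 members among them. Empty droplets were barcodes of 100 to under 500 UMIs in the deposited count matrices.

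UMIs were summed per library and class (Python 3.11.15, scipy 1.17.1), and intervals were tested on simulated data. The simulated counts held Poisson counting error only, which the intervals assume, so they could not show whether the intervals cover any other spread. For the clusters, 2000 variable genes were picked with scanpy 1.11.5, and 30 components and the nearest neighbours were found with scikit-learn. Cells were then grouped by the Leiden method of igraph on shared neighbours. Besides the 9 members, the 3 lists of postsynaptic genes, Xist and symbols that start with mt-, Rpl, Rps or Gm were left out of this. A cluster was named from at least 3 markers of a list at 2-fold or more over the mean of the other clusters, unless its leading genes went against the name. Doublets were not called, and leaving out the 5% deepest cells stood in for that. Scaling alternatives used edgeR 4.0.16 and DESeq2 1.42.0. The 9 members, the lists and the rules for named genes were chosen with earlier results of these data known. Named genes were the members, the 3 highest and 3 lowest homozygous ratios of each list (2 and 2 for the inhibitory list), and the 5 genes most like the members summed. Results on cluster 21 are not reported here.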

Additional observations from a re-analysis of the deposited data

How the results depend on the processing

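No paired analysis was possible because each genotype had 1 library, so no library could be left out, and no spread between animals could be had. Of 506 values under alternatives, 430 stayed within the counting interval of the main value or, for counts, within 1.5 times. TMM factors, DESeq2 size factors and CPM over the genes of the neuronal table moved none of the 33 ratios each beyond its interval. Raw UMIs per cell, which carries the difference in depth between libraries and classes, was the setting under which ratios whose interval did not hold 0 turned direction. Signs of ratios whose interval held 0 also turned under other settings, such as Shank2 in typical over other cells of the heterozygous library, from -0.058 to 0.30 with cells weighted alike. Under raw UMIs per cell the summed members had log2 ratios of -0.028 (heterozygous over wild-type), -0.25 (homozygous over wild-type) and -0.23 (homozygous over heterozygous), and of typical over other cells 0.36, -0.47 and 0.15 in the wild-type, heterozygous and homozygous libraries. Without Shank1 the typical over other sums turned to -0.068 (wild-type) and -0.061 (homozygous). Single genes that turned were Shank1 (-0.16 homozygous over wild-type, -0.17 homozygous over heterozygous, -0.29 typical over other, heterozygous), Dlg4 (-0.19 homozygous over wild-type), Dlg2 (-0.060 typical over other, homozygous) and Homer1 (-0.10 typical over other, wild-type). Subtracting the empty-droplet profile moved the summed heterozygous over wild-type ratio to -0.020 and the typical over other ratios to 1.14 (wild-type) and 0.82 (homozygous). Weighting cells alike gave 0.80 (wild-type) and 0.31 (heterozygous), thinning gave 0.80, 0.28 and 0.60, and leaving out the 5% deepest cells gave 0.81 (wild-type). With no filter on low values, 1 member (Shank3) was past 1.5-fold in the heterozygous and 1 (Shank3) in the homozygous over the wild-type library, beside 28.6% and 30.2% of genes, and 2 were past 2-fold in typical over other cells of the homozygous library. Depth limits Shank3 and Dlg3, with 9 to 68 UMIs in typical neurons of a library.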
